A study of Mus musculus with 24 samples.

Results

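Small nucleolar RNAs (snoRNAs) and the noncoding genes named as their hosts were followed in mouse muscle stem cells and myoblasts with reduced Chd4. Members were chosen by symbol (Snord, Snora or Snhg with a number, or Gas5) and by level, at least 1 RPKM in at least 4 of the 8 libraries of the in vitro or the in vivo table. RPKM scales the reads of a gene to its length and to the size of the library. This took 68 of the 156 genes with such a symbol, out of 46078 genes in each table: 38 box C/D snoRNAs of 100, 18 box H/ACA snoRNAs of 42 and 12 noncoding host genes of 14. The level chose the members, so the levels themselves are given as a description. 67 members reached the minimum in vivo and 43 in vitro, 42 of them in both. Snora69 was the member nearest the minimum, with a 4th highest value of 1.14 RPKM, and Snora78 fell just short at 0.920 RPKM. Of the other 88 genes, 68 were listed at 0 in all 16 libraries, among them all 17 copies of Snord116, a cluster of imprinted snoRNAs known from neurons.

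Total RNA was sequenced in 4 groups of 4 libraries, all from C57BL/6 mice aged 2 to 4 months that carry the Chd4fl/fl allele or its deletion. The in vivo groups are freshly sorted satellite cells, the stem cells of skeletal muscle, of genotype Chd4dPax7ER or Chd4fl/fl, both taken 3 days after cardiotoxin was used to injure the muscle. The sort kept SCA1-/CD45-/α7-integrin+/CD34+ cells. The in vitro groups are proliferating primary myoblasts derived from satellite cells of resting Chd4fl/fl muscle, collected 72 hours after an adenovirus that codes for Cre (AdCRE) or for GFP (AdGFP). In vivo, Pax7ER is named in the Chd4dPax7ER genotype alone. Cre is coded by the AdCRE virus alone, so its own effects and those of losing Chd4 cannot be told apart. Not given in the sources used here are the Cre status and the treatment of the Chd4fl/fl mice in the in vivo comparison. Separate animals or cultures are not stated for the replicates, so the p-values measure the spread between these libraries, which may be technical. In bulk RNA, fewer cells of a type and less RNA per cell cannot be told apart. The 8 ATAC-seq samples of the series were not analysed here.

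Most vertebrate snoRNAs are cut from introns of a host gene as its transcript is spliced. Box C/D snoRNAs guide 2′-O-methylation and box H/ACA snoRNAs guide pseudouridylation, mostly of ribosomal RNA, each within a particle of 4 core proteins around fibrillarin or dyskerin. Many host genes encode ribosomal proteins or translation factors. The noncoding hosts, such as Gas5 and the Snhg genes, give spliced RNAs of which many are removed by nonsense-mediated decay, so their level also depends on translation and growth.

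Chd4, the ATPase of the NuRD chromatin complex, averaged 56.7 ± 8.37 RPKM in Chd4dPax7ER and 126 ± 6.77 RPKM in Chd4fl/fl cells (SD, n = 4 each). In culture it averaged 20.8 ± 3.49 RPKM after AdCRE and 75.1 ± 7.75 RPKM after AdGFP. It was lower in all 4 libraries of each Chd4-reduced group (exact permutation p = 0.0286 in each table, the smallest that 70 arrangements can give, and 0.125 within the 4 pairs in vitro, the smallest that 16 can give). The 10 myogenic markers summed to 1116 to 1346 RPKM in Chd4dPax7ER and 694 to 870 RPKM in Chd4fl/fl libraries, and to 1248 to 1581 RPKM after AdCRE and 1270 to 1343 RPKM after AdGFP, with 1 of the 10 at 0 in every in vitro library. In vivo 4 of the 10 were higher, Myod1 among them (log2 fold change 1.00), and Pax7, the defining satellite cell marker, was lower. Pax7 averaged 11.5 ± 2.94 RPKM in Chd4dPax7ER and 21.3 ± 6.43 RPKM in Chd4fl/fl cells (-0.85, SE 0.24, adjusted p = 0.0301 with limma), and did not pass without Chd4dPax7ER replicate 2 or 4 or Chd4fl/fl replicate 3 or 4 (0.0626 to 0.0733). Its part in the results below was not tested. Libraries summed to between 286802 and 326812 RPKM over both tables. Most snoRNA values rested on few reads. In 51 of 56 snoRNA members in vivo and 46 of 52 in vitro, all values were whole multiples of 1 step. They held within 0.12 steps, as whole reads would give, with the step scaled to the estimated reads of each library. In these members a value was worth a median of 4 steps in each table. The members in which no step was found were among the most abundant, with Snora31, Snord22 and Snord100 left out in each table.

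Among noncoding host genes of sorted satellite cells, Gas5, Snhg5 and Snhg17 were lower in Chd4dPax7ER cells, at 62.2% to 65.8% of the Chd4fl/fl mean, and Snhg9 was higher. Snhg11 was abundant in Chd4dPax7ER cells and close to 0 in Chd4fl/fl cells. Of the 12 host genes, 3 passed as lower and Snhg9 as higher, and Snhg11 is described without a test. A gene passed when its adjusted p from limma, on log2(RPKM + 0.5) with Benjamini-Hochberg adjustment over all 13344 genes tested, was under 0.05. Of those 13344 genes 26.6% passed, 14.7% as higher and 11.9% as lower. Higher genes made up 55.2% of these calls, and 46.2% or 47.3% when libraries were scaled to equal sums (TPM scaling) or by quantiles. The log2 fold changes below are on that scale, which understates changes of low genes.

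Gas5 (ENSMUSG00000053332), the growth arrest-specific host of a row of box C/D snoRNAs, had 69.0, 54.4, 63.1 and 45.5 RPKM in Chd4dPax7ER libraries 1 to 4, against 91.4, 86.7, 98.3 and 84.2 RPKM in Chd4fl/fl libraries. Every Chd4dPax7ER library lay below every Chd4fl/fl library, and the mean was 64.3% of that in Chd4fl/fl (log2 fold change -0.65, SE 0.12, adjusted p = 0.00503). Snhg5 (ENSMUSG00000097195), a short spliced noncoding RNA, had 36.2, 34.0, 34.0 and 28.5 RPKM in Chd4dPax7ER libraries, against 55.9, 53.0, 50.7 and 42.0 RPKM in Chd4fl/fl libraries. Here too the groups did not overlap, with a mean of 65.8% of Chd4fl/fl (-0.59, SE 0.11, adjusted p = 0.00395). Snhg17 (ENSMUSG00000085385) was expressed several times lower than these, at 5.48, 4.72, 6.51 and 5.47 RPKM in Chd4dPax7ER cells and 8.73, 8.12, 9.60 and 9.22 RPKM in Chd4fl/fl cells. It fell to 62.2% of the Chd4fl/fl mean without overlap (-0.64, SE 0.11, adjusted p = 0.00394). In RefSeq GRCm38.p6, Gas5 lies at chr1:161034601-161038539, Snhg5 at chr9:88521052-88522897 and Snhg17 at chr2:158353700-158361522. No snoRNA member lies within the span of Gas5, Snhg5 or Snhg17, so their fold changes could not be set beside those of their own snoRNAs. Gas5 overlaps Zbtb37 by 264 bases. Reads from the shared bases cannot be told apart without strand, and Zbtb37 did not pass (-0.43, SE 0.16, adjusted p = 0.0811).

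Snhg9 (ENSMUSG00000090101) had 13.9, 3.25, 5.91 and 8.11 RPKM in Chd4dPax7ER libraries, against 0.860, 1.73, 0 and 0 RPKM in Chd4fl/fl libraries. The Chd4dPax7ER libraries spread widely, and the lowest of them was still above the highest Chd4fl/fl library (log2 fold change 2.99, SE 0.56, adjusted p = 0.00482). Snhg9 (chr17:24719531-24719965) is 435 bases long and lies wholly within the RefSeq span of Rps2, a ribosomal protein gene, and the sources used here do not say whether reads were counted by strand. Rps2 itself averaged 93.2 ± 23.8 RPKM in Chd4dPax7ER and 85.3 ± 19.4 RPKM in Chd4fl/fl cells and did not pass (0.12, SE 0.20, adjusted p = 0.703). Snora78, the snoRNA within Snhg9, was listed at 0 in all 8 in vivo libraries.

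Snhg11 (ENSMUSG00000044349), a host RNA best known from neurons, had 16.3, 22.3, 20.1 and 21.3 RPKM in Chd4dPax7ER libraries, against 0.22, 0.13, 0.31 and 0.1 RPKM in Chd4fl/fl libraries. It met the level for membership through the Chd4dPax7ER libraries alone, so the difference had to be there and is given without a test. In culture it stayed far lower, at 0.685, 0.0827, 0.161 and 0.208 RPKM after AdCRE, against 0.00907, 0, 0 and 0.0212 RPKM after AdGFP, below the minimum for a test there. Every AdCRE library was above every AdGFP library. Snhg11 and Snhg17 are neighbours on chromosome 2, 14190 bases apart with no other RefSeq gene between them and with starts that face away from each other, and in Chd4dPax7ER cells Snhg17 was lower while Snhg11 stood at a higher level.

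**Figure D1:**
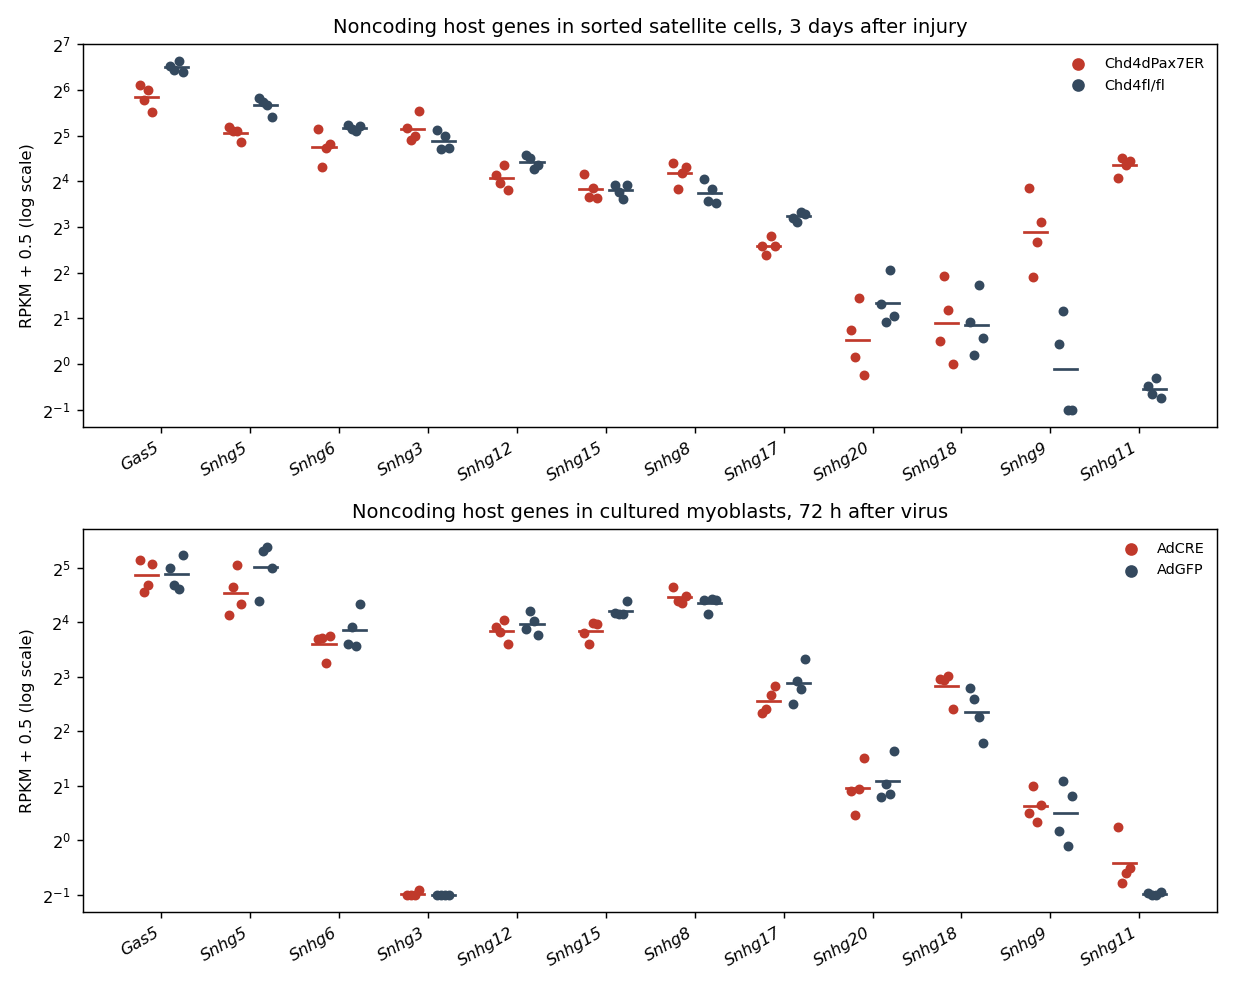
RPKM + 0.5 on a log scale for the 12 noncoding host genes in each library, with the Chd4-reduced group left of its control and a bar at the mean of the log values. In the upper plot (in vivo) Gas5, Snhg5 and Snhg17 lie lower in Chd4dPax7ER, and Snhg9 and Snhg11 higher. In the lower plot (in vitro) the groups overlap for most genes, and Snhg3 is listed at 0 in 7 of 8 libraries.

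The other 7 host genes did not pass. Snhg8 averaged 17.9 ± 3.00 RPKM in Chd4dPax7ER and 13.02 ± 2.37 RPKM in Chd4fl/fl cells (log2 fold change 0.44, SE 0.15, adjusted p = 0.0619). Snhg6, the host of Snord87, averaged 27.1 ± 6.43 RPKM in Chd4dPax7ER and 35.6 ± 1.60 RPKM in Chd4fl/fl cells (-0.42, SE 0.15, adjusted p = 0.0693). Snhg12 averaged 16.5 ± 2.77 RPKM in Chd4dPax7ER and 21.1 ± 2.09 RPKM in Chd4fl/fl cells (-0.36, SE 0.12, adjusted p = 0.0631). These 3 stood near the threshold, and each passed when 1 library was left out (Snhg8 without Chd4dPax7ER replicate 2 or Chd4fl/fl replicate 1, Snhg6 without Chd4dPax7ER replicate 1, Snhg12 without Chd4dPax7ER replicate 3). Snhg3, the host of the box H/ACA pair Snora73a and Snora73b, averaged 35.5 ± 7.43 RPKM in Chd4dPax7ER and 29.4 ± 4.26 RPKM in Chd4fl/fl cells (0.26, SE 0.15, adjusted p = 0.238). Snhg15 (0.02, SE 0.13), Snhg18 (0.05, SE 0.45) and Snhg20 (-0.81, SE 0.39) also did not pass, the last passing without Chd4dPax7ER replicate 3.

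The promoters of 5 host genes are shown. Of these, 3 passed as lower in vivo (Gas5, Snhg5 and Snhg17) and Snhg9 passed as higher. Snhg11 is shown beside them although its difference, fixed by the choice of members, was not tested. Each window holds 300 bases, from 250 before to 50 after the RefSeq start in GRCm38.p6, written along the gene's own strand (for Gas5 and Snhg17 the first of 2 starts listed). Capitals mark 3 motifs, each searched on both strands. The E-box was searched as CACGTG. The TATA box was searched as TATAAA. The GC box was searched as GGGCGG.
Gas5, chr1:161034351-161034650, plus strand: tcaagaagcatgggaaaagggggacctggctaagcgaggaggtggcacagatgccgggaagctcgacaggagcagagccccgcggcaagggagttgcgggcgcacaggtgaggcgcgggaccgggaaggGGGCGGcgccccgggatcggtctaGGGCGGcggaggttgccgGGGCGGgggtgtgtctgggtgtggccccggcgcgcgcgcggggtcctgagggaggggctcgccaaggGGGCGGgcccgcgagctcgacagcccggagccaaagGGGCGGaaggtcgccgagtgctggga
Snhg5, chr9:88522848-88523147, minus strand: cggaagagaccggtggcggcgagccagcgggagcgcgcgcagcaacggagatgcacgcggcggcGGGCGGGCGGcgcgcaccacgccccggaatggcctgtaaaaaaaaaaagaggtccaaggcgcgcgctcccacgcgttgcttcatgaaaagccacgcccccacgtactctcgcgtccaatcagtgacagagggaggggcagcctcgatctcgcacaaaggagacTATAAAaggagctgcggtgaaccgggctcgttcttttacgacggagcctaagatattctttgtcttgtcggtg
Snhg17, chr2:158361473-158361772, minus strand: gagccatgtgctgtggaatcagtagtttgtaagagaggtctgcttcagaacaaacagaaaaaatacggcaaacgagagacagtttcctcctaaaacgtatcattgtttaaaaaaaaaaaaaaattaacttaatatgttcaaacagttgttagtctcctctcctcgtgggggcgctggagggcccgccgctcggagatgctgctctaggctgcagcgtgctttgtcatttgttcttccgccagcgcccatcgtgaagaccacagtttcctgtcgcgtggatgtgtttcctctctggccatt
Snhg9, chr17:24719916-24720215, minus strand: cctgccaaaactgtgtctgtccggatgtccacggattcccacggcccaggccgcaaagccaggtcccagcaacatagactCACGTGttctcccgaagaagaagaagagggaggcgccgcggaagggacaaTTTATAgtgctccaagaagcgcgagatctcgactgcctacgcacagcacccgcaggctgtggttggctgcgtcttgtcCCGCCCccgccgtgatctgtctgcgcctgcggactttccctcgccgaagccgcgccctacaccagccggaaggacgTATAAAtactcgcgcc
Snhg11, chr2:158375463-158375762, plus strand: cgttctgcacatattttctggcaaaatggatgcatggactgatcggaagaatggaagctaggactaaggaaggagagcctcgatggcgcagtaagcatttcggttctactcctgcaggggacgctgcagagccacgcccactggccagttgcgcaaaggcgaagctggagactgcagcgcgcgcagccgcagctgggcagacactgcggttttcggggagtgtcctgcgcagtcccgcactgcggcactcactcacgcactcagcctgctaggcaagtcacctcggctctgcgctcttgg
Of 32851 RefSeq promoter windows, 7.15% hold the E-box, 13.6% the TATA box and 35.7% the GC box. The printed window of Gas5 holds 5 GC boxes and none of the other motifs. That of Snhg5 holds 2 GC boxes that overlap each other and a TATA box starting 23 bases before the start. Snhg9 has 1 E-box, 1 GC box and TATA letters in 2 places, and the printed windows of Snhg17 and Snhg11 hold none of the 3 motifs. The window of the second start of Snhg17 holds 1 GC box, 43 bases after that start. That of the second start of Gas5 holds 3 GC boxes and none of the other motifs. The printed windows of the 3 lower genes hold 33, 36 and 14 CG dinucleotides (Gas5, Snhg5, Snhg17) and those of Snhg9 and Snhg11 hold 28 and 21, against a median of 7 over all windows.

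Among the snoRNAs themselves, 5 were lower and 1 higher in Chd4dPax7ER satellite cells. Of 55 tested, 4 of 37 box C/D snoRNAs passed as lower and 1 as higher, and of 18 box H/ACA snoRNAs 1 passed as lower. In total 10.9% of the snoRNAs passed, below the 26.6% of all genes tested, at values that for most snoRNAs rest on few steps. Fold changes were below 0 for 41 of the 55 snoRNAs, against 6873 of all 13344 genes tested. Their median was -0.38, against -0.02 over all genes. The 11 host genes other than Snhg11 had a median of -0.36. Groups did not overlap for 7 lower and 2 higher members of 67 (Snhg11, which had to be, and Snhg9), against 30.3% of all genes, 14.3% as lower.

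Snora31 (ENSMUSG00000065147), a box H/ACA guide of ribosomal RNA within Tpt1, had 18.4, 18.3, 15.5 and 17.1 RPKM in Chd4dPax7ER libraries, against 35.2, 38.9, 47.5 and 38.4 RPKM in Chd4fl/fl libraries. The groups lay well apart, and the Chd4dPax7ER mean was 43.3% of the Chd4fl/fl mean (log2 fold change -1.18, SE 0.10, adjusted p = 0.000137). Its host Tpt1, which encodes the translationally controlled tumour protein, averaged 372 ± 19.7 RPKM in Chd4dPax7ER and 398 ± 19.5 RPKM in Chd4fl/fl cells and did not pass (-0.10, SE 0.06, adjusted p = 0.306).

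Snord16a (ENSMUSG00000094411), within the ribosomal protein gene Rpl4, had 15.1, 12.02, 20.3 and 23.98 RPKM in Chd4dPax7ER libraries, against 39.9, 23.97, 47.2 and 47.4 RPKM in Chd4fl/fl libraries. The highest Chd4dPax7ER value just exceeded the lowest Chd4fl/fl value (-1.13, SE 0.26, adjusted p = 0.0122), and the values were worth 47 steps in all in Chd4dPax7ER and 100 in Chd4fl/fl. Snord73a (ENSMUSG00000064984), within Rps3a1, had 6.61, 10.9, 11.4 and 10.9 RPKM in Chd4dPax7ER libraries, against 30.2, 23.3, 14.7 and 17.3 RPKM in Chd4fl/fl libraries. It fell to 46.6% of the Chd4fl/fl mean without overlap (-1.04, SE 0.24, adjusted p = 0.0122), on 18 steps in Chd4dPax7ER and 37 in Chd4fl/fl. In human cells both snoRNAs are guides of ribosomal RNA methylation. Snora31 lies at chr14:75847923-75848034, Snord16a at chr9:64175432-64175522 and Snord73a at chr3:86138791-86138858 (RefSeq GRCm38.p6).

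Snord87 (ENSMUSG00000093178), within the noncoding host Snhg6, had 0, 5.13, 1.78 and 0 RPKM in Chd4dPax7ER libraries, against 14.5, 9.09, 9.58 and 10.1 RPKM in Chd4fl/fl libraries. That is 0, 3, 1 and 0 steps in Chd4dPax7ER and 8, 5, 5 and 6 steps in Chd4fl/fl (log2 fold change -3.06, SE 0.71, adjusted p = 0.0129). Snord4a (ENSMUSG00000077625), within Rpl23a, had 4.22, 2.09, 0 and 6.27 RPKM in Chd4dPax7ER libraries, against 6.67, 24.5, 14.1 and 14.5 RPKM in Chd4fl/fl libraries. The groups of Snord4a did not overlap in RPKM (-2.47, SE 0.74, adjusted p = 0.0354). In steps they touched, with 3 in Chd4dPax7ER replicate 4 and 3 in Chd4fl/fl replicate 1. Snord4a did not pass without Chd4dPax7ER replicate 2 (adjusted p = 0.07) or without Chd4fl/fl replicate 2, 3 or 4 (0.072 to 0.0903). Snord42a, which lies within Rpl23a as well, had a fold change of 0.07 (SE 0.40). Snord87 lies at chr1:9942470-9942543 and Snord4a at chr11:78181687-78181756.

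Snord104 (ENSMUSG00000065126, chr11:106500991-106501063) was the snoRNA that was higher. It had 15.0, 8.5, 15.5 and 23.3 RPKM in Chd4dPax7ER libraries, against 0, 2.26, 11.9 and 2.1 RPKM in Chd4fl/fl libraries (2.55, SE 0.80, adjusted p = 0.0422). Chd4fl/fl replicate 3 lay inside the Chd4dPax7ER range, and the values were worth 29 steps in Chd4dPax7ER and 7 in Chd4fl/fl. Without Chd4fl/fl replicate 3 it passed, and without any other single library it did not (adjusted p = 0.0555 to 0.0958).

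**Figure D2:**
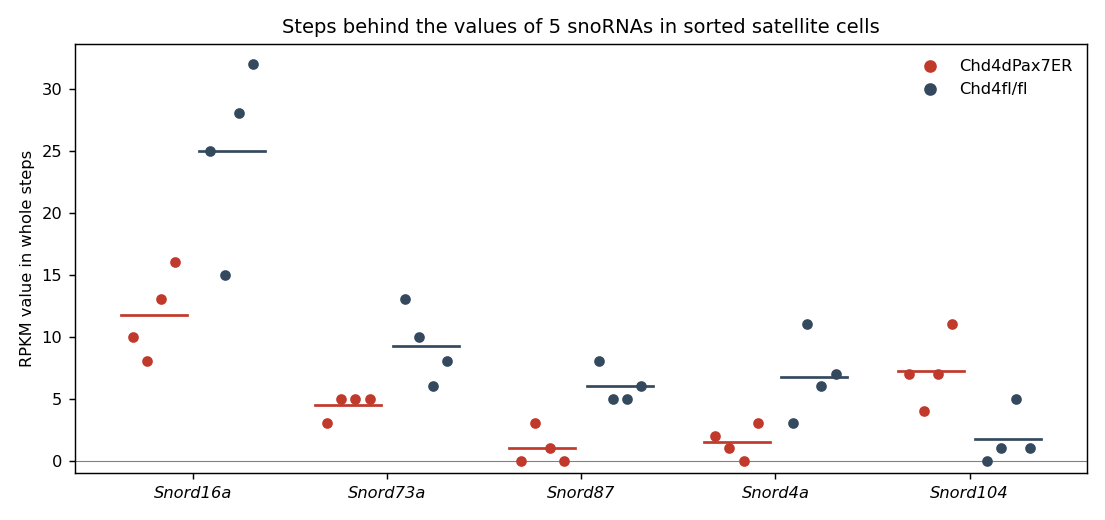
RPKM values in whole steps for 5 snoRNAs in the 4 Chd4dPax7ER libraries (left of each pair) and the 4 Chd4fl/fl libraries, with a bar at the mean. A step is the amount, scaled to the estimated reads of each library, of which a gene's values are whole multiples. Snord87 rests on 4 steps in Chd4dPax7ER and 24 in Chd4fl/fl, and Snord4a on 6 and 27, while Snord16a rests on 47 and 100.

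The other 49 tested snoRNAs did not pass, with log2 fold changes between -2.06 and 1.29 and standard errors of 0.15 to 1.37. The most abundant box C/D member, Snord22, had 51.1, 40.1, 65.0 and 40.0 RPKM in Chd4dPax7ER libraries, against 67.7, 61.5, 103 and 59.4 RPKM in Chd4fl/fl libraries. Replicate 3 was highest in each group, and the groups overlapped through it (-0.56, SE 0.20, adjusted p = 0.0712). Snord43, within Rpl3, was worth 2, 2, 5 and 0 steps in Chd4dPax7ER and 10, 5, 11 and 4 steps in Chd4fl/fl libraries (-2.06, SE 0.74, adjusted p = 0.0676). Both passed without Chd4dPax7ER replicate 3 (adjusted p = 0.0325 for Snord22 and 0.0296 for Snord43). The abundant Snord100, within Rps12 (0.15, SE 0.15), Snora17 (-0.28, SE 0.29) and Snora28 (0.19, SE 0.18) had small fold changes. Summed over the class, box C/D members came to 362, 355, 597 and 378 RPKM in Chd4dPax7ER libraries and 493, 480, 576 and 510 RPKM in Chd4fl/fl libraries. Chd4dPax7ER replicate 3 was the highest of all 8, and the other 3 were the lowest.

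**Figure D3:**
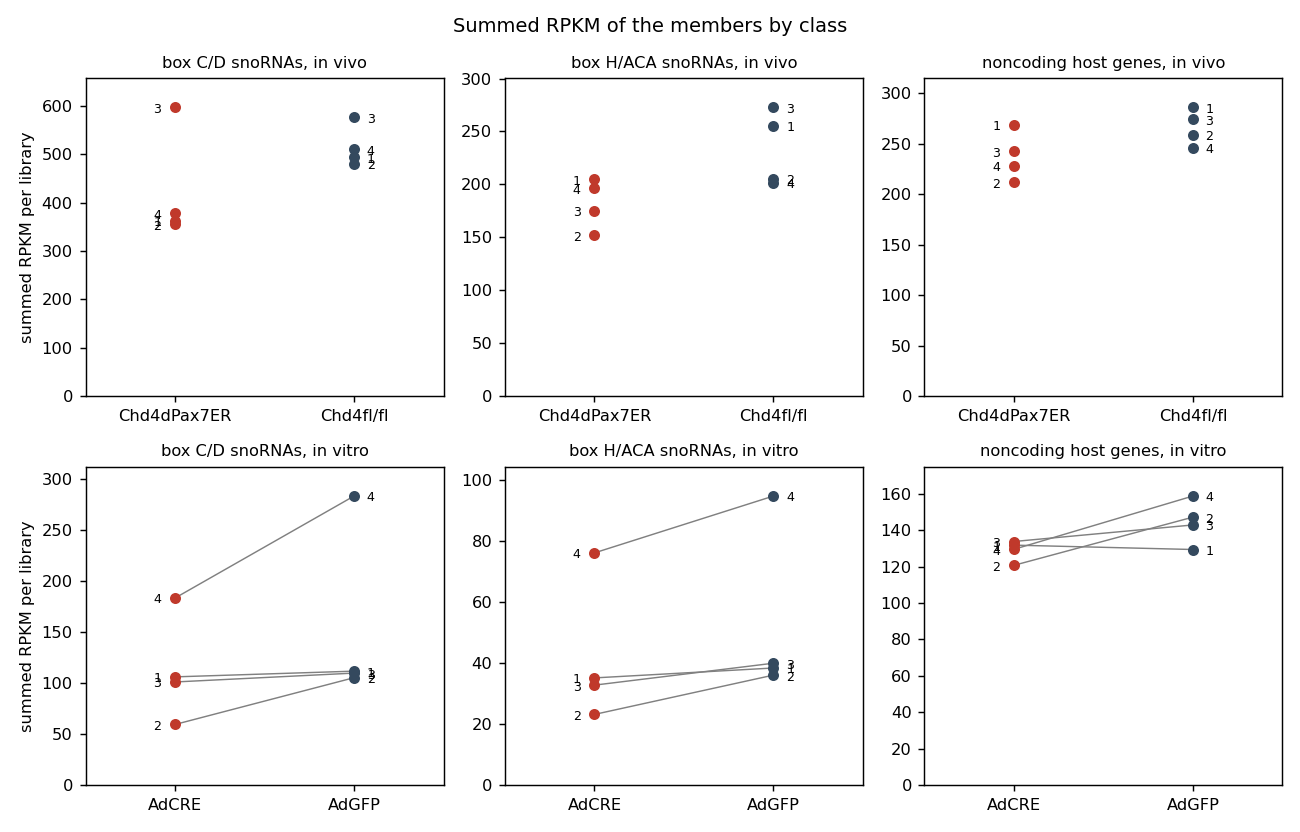
Summed RPKM per library of the box C/D, box H/ACA and host members (columns) in vivo (upper row) and in vitro (lower row), the Chd4-reduced group left of its control. Numbers are replicates, and lines join the pairs in vitro. Replicate 4 stands above the others for both snoRNA classes in vitro, and Chd4dPax7ER replicate 3 stands apart for box C/D in vivo.

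snoRNA fold changes were less precise than those of their hosts. 53 of the 56 snoRNA members lie within the RefSeq span of another gene of the tables, 44 genes in all, and 20 snoRNAs lie in ribosomal protein genes. In vivo 50 snoRNAs in 42 hosts could be set beside the host's fold change. The sign was the same for 29 and opposite for 21, and no pair passed in both members. Without Chd4dPax7ER replicate 1 both members passed for Snord73a with Rps3a1 (adjusted p = 0.0306 for Rps3a1) and for Snord87 with Snhg6 (0.0144 for Snhg6), and without Chd4fl/fl replicate 3 for Snora23 with Ipo7. The first 2 of these pairs also passed in both members under TPM scaling, and Snord73a with Rps3a1 under quantile scaling. The median size of the log2 fold change was 0.66 for snoRNAs, with a median SE of 0.76, and 0.13 for hosts, with a median SE of 0.09. A size taken without its sign grows with its error, so these medians cannot show whether snoRNAs changed more than hosts. The 5 hosts that passed were all lower: Ipo7 (-0.42, adjusted p = 0.00451), 2410002F23Rik (-0.59, adjusted p = 0.00907), Snx5 (-0.24, adjusted p = 0.0221), Ccar1 (-0.23, adjusted p = 0.0322) and Rpl3. Rpl3, which holds Snord43 and Snord83b, averaged 244 ± 23.3 RPKM in Chd4dPax7ER and 293 ± 5.02 RPKM in Chd4fl/fl cells (-0.27, SE 0.07, adjusted p = 0.0266). The call of Rpl3 was lost without Chd4dPax7ER replicate 2 or 3 or without any 1 of the Chd4fl/fl replicates (adjusted p = 0.0527 to 0.0634). Rpl4 (-0.09, SE 0.07), Rpl23a (-0.07, SE 0.09) and Rps3a1 (-0.42, SE 0.14, adjusted p = 0.0583), the hosts of Snord16a, Snord4a and Snord73a, did not pass. A read within a snoRNA can come from the snoRNA or from unspliced host RNA, and the tables do not separate these.

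**Figure D4:**
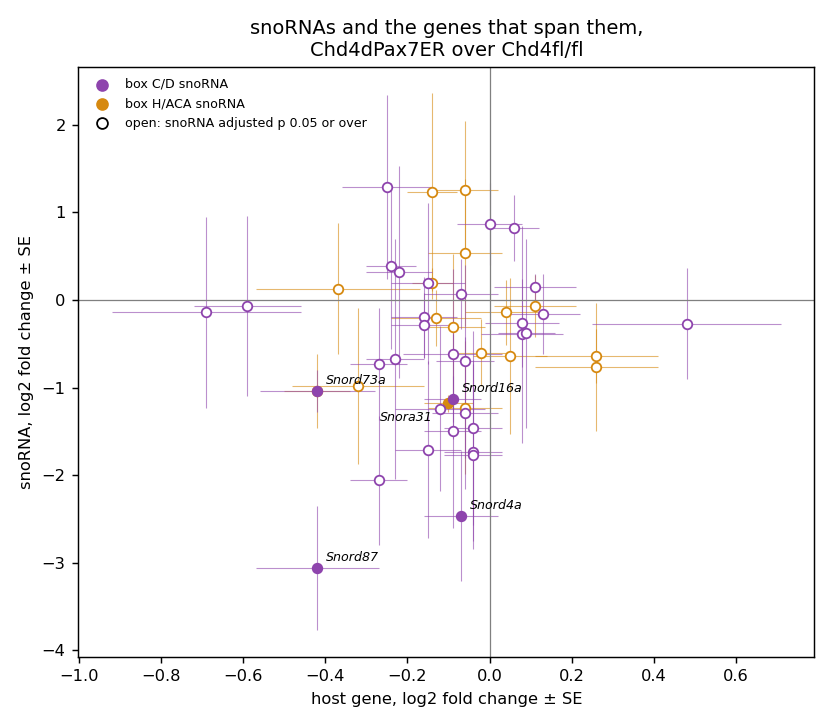
log2 fold change of each snoRNA, Chd4dPax7ER over Chd4fl/fl (vertical axis), against that of the gene whose span holds it (horizontal axis), both with their SE, for 50 snoRNAs in vivo. The 2 axes differ in scale: hosts lie between -0.69 and 0.48, whereas snoRNAs reach down to -3.06.

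Of the 8 core genes of the snoRNA particles, 2 passed in vivo, a share near the 26.6% of all genes tested. Both were of the box H/ACA particle. None of the 4 box C/D core genes passed: Fbl, the methyltransferase fibrillarin, averaged 56.5 ± 8.66 RPKM in Chd4dPax7ER and 61.2 ± 2.29 RPKM in Chd4fl/fl cells (-0.13, SE 0.10), and Nop56 (-0.09, SE 0.12), Nop58 (-0.12, SE 0.11) and Snu13 (-0.17, SE 0.20) did not pass either. Gar1, a core protein of the box H/ACA particle, had 21.2, 15.5, 18.1 and 19.0 RPKM in Chd4dPax7ER libraries, against 31.8, 29.1, 24.03 and 29.1 RPKM in Chd4fl/fl libraries (-0.61, SE 0.11, adjusted p = 0.00483). Dkc1, the pseudouridine synthase dyskerin, averaged 32.7 ± 4.30 RPKM in Chd4dPax7ER and 43.4 ± 3.43 RPKM in Chd4fl/fl cells (-0.41, SE 0.10, adjusted p = 0.0189). No library of one group reached the other for either gene, and Nhp2 (-0.08, SE 0.17) and Nop10 (-0.21, SE 0.15) did not pass. Dkc1 lost its call without Chd4fl/fl replicate 1 or 2 (adjusted p = 0.0524 and 0.0502).

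Of 12 assembly factors 1 passed, Ruvbl1, an ATPase of the particle chaperone (-0.37, SE 0.11, adjusted p = 0.0393), and it did not pass without any 1 of the Chd4dPax7ER replicates or without Chd4fl/fl replicate 1 or 2 (adjusted p = 0.0566 to 0.105). Of 40 genes of ribosomal RNA synthesis and processing 5 were lower and 2 higher. The processome genes Utp6 (-0.49, SE 0.08, adjusted p = 0.00285) and Utp15 (-0.41, SE 0.11, adjusted p = 0.024) were among the lower ones, and Bop1 (0.38, SE 0.09, adjusted p = 0.0134) was higher. Of 10 genes of nonsense-mediated decay 1 passed, Upf3b (-0.41, SE 0.11, adjusted p = 0.019). Without Chd4fl/fl replicate 1 neither Utp15 (adjusted p = 0.0611) nor Upf3b (0.053) passed, and without Chd4fl/fl replicate 2 Upf3b did not (0.0531). Of 53 protein-coding genes listed as snoRNA hosts 4 were lower (Chd8, Dkc1, Rpl3 and Taf1d) and 1 higher (Vwa8). That list, drawn up from known hosts, does not hold Ipo7, Snx5, Ccar1 or 2410002F23Rik, which came in through the RefSeq spans. In each of these 4 lists the share that passed was below the 26.6% of all genes. None of 4 other short structural RNAs tested passed. Of 8 other noncoding hosts 3 were higher and 2 lower. Rian, the imprinted host of another snoRNA cluster, averaged 16.4 ± 4.84 RPKM in Chd4dPax7ER and 3.53 ± 1.02 RPKM in Chd4fl/fl cells (2.06, SE 0.24, adjusted p = 0.0005). Its neighbours Meg3 (1.88, SE 0.26) and Mirg (1.56, SE 0.24) were also higher, and Mir17hg, the host of a microRNA cluster, was lower (-0.96, SE 0.24, adjusted p = 0.0169).

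Markers of cell growth and of other cells differed between the same libraries. The 16 cell cycle genes summed to 329 to 616 RPKM in Chd4dPax7ER and 646 to 886 RPKM in Chd4fl/fl libraries, and 6 of them passed as lower. The 6 Schwann cell markers summed to 15.5 to 50.8 RPKM in Chd4dPax7ER and 3.80 to 12.5 RPKM in Chd4fl/fl libraries (4 higher). Fibroblast markers, 8 tested of 9, summed to 299 to 489 RPKM in Chd4dPax7ER and 126 to 176 RPKM in Chd4fl/fl libraries (5 higher). Myofibre genes, 9 tested of 10, summed to 1011 to 2738 RPKM in Chd4dPax7ER and 328 to 649 RPKM in Chd4fl/fl libraries, all 9 higher. Pericyte markers, 5 tested of 6 (2 higher), endothelial markers, 2 tested of 8 (1 higher), and macrophage markers, 11 tested of 12 (1 higher), summed to 204 to 401, 7.74 to 14.3 and 107 to 224 RPKM in Chd4dPax7ER libraries. In Chd4fl/fl libraries they summed to 110 to 255, 3.64 to 6.97 and 83.5 to 165 RPKM. No marker of these lists was at 0 in every library. Their part in the snoRNA and host gene differences was not tested.

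In cultured myoblasts no member passed when libraries were compared without regard to their number. Of 55 members tested none passed with limma, and 2 (Snhg15 and Snord83b) had an unadjusted p under 0.05. Of all 13567 genes 0.656% passed, 0.516% as higher and 0.14% as lower. Same-numbered libraries deviated together there, so a fit that takes the pairs as a block is given beside it. In that fit 9 members were lower after AdCRE and 1 higher, while 36.2% of all genes passed, 18.7% as lower and 17.5% as higher. The median log2 fold change of the members was -0.26, against -0.01 over all genes. Fold changes were below 0 for 37 of the 55 members and for 6961 of all 13567 genes. Without pair 1 the block fit passed 18 members, 17 of them lower.

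Among host genes in culture Snhg5, Snhg15 and Snhg17 were lower and Snhg18 higher within pairs. These are 4 of 10 host genes, a share of 40% that is near the 36.2% of all genes in that fit. Snhg5 had 17.0, 24.7, 32.5 and 19.8 RPKM after AdCRE, against 20.3, 39.0, 41.4 and 31.4 RPKM in the same pairs after AdGFP. It was lower in all 4 pairs although the groups overlapped (log2 fold change -0.47, SE 0.08 and adjusted p = 0.00372 within pairs, SE 0.26 and adjusted p = 0.430 without them). Snhg15 had 13.5, 11.6, 15.3 and 15.1 RPKM after AdCRE, against 17.4, 17.4, 17.2 and 20.3 RPKM after AdGFP (-0.38, adjusted p = 0.00500 within pairs and 0.151 without). Its groups did not overlap, which held for no other of the 55 tested members, against 10.0% of all genes tested (6.21% as lower). Snhg17 had 4.55, 4.78, 5.82 and 6.61 RPKM after AdCRE, against 5.16, 7.04, 6.31 and 9.59 RPKM after AdGFP (-0.32, adjusted p = 0.0231 within pairs and 0.459 without). Snhg18 had 7.26, 7.18, 7.6 and 4.81 RPKM after AdCRE, against 6.44, 5.56, 4.32 and 2.96 RPKM after AdGFP, higher in all 4 pairs (0.47, adjusted p = 0.0103 within pairs and 0.380 without). Replicate 4 was the lowest in each group for Snhg18 and the highest for Snhg17.

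Gas5 had 35.0, 23.2, 25.4 and 33.1 RPKM after AdCRE, against 31.4, 25.2, 23.9 and 37.2 RPKM after AdGFP. It was lower in 2 of 4 pairs, with a mean of 99.0% of that after AdGFP (-0.01, SE 0.06 and adjusted p = 0.895 within pairs). Snhg9 averaged 1.07 ± 0.314 RPKM after AdCRE and 0.986 ± 0.551 RPKM after AdGFP (0.13, SE 0.13 and adjusted p = 0.458 within pairs). Snhg6 (-0.25), Snhg8 (0.12), Snhg12 (-0.13) and Snhg20 (-0.13) did not pass either way. Snhg3, Snora73a, Snora73b, Snord4a and Snord42a were listed at or near 0 in every in vitro library. Rpl23a, a ribosomal protein gene that every cell uses, was at 0.380 ± 0.174 RPKM after AdCRE and 0.416 ± 0.0638 RPKM after AdGFP, against 189 RPKM or more in every in vivo library. A value of 0 in that table therefore does not show that these genes were silent.

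Of 45 snoRNAs tested in culture, 6 box C/D members were lower within pairs and none higher, which is 13.3% of the snoRNAs against 36.2% of all genes in that fit. Snord100 had 6.84, 1.59, 7.13 and 12.4 RPKM after AdCRE, against 9.92, 5.71, 10.1 and 32.8 RPKM after AdGFP (-0.98, SE 0.19 and adjusted p = 0.00778 within pairs, SE 0.65 and adjusted p = 0.519 without). Each pair differed in the same direction, and replicate 4 was highest in each group. Snord69 and Snord19, both within Gnl3, had within-pair fold changes of -0.46 (SE 0.09, adjusted p = 0.00721) and -0.72 (SE 0.15, adjusted p = 0.0113). Snord83b and Snord43, both within Rpl3, had -1.17 (SE 0.27, adjusted p = 0.0149) and -0.66 (SE 0.15, adjusted p = 0.0153). Snord87 had -0.78 (SE 0.23, adjusted p = 0.0362). All 6 were lower in all 4 pairs, and each of these calls is absent without the block (adjusted p = 0.216 to 0.664). Gnl3, which encodes nucleostemin, was lower within pairs as well (-0.31, adjusted p = 0.00453), whereas Rpl3 did not pass (-0.09, adjusted p = 0.163). Without pair 1 the block fit passed 13 snoRNAs, these 6 among them. Snord83b lost its call without pair 2, 3 or 4, Snord43 without pair 2 or 4 and Snord87 without pair 3 or 4.

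**Figure D5:**
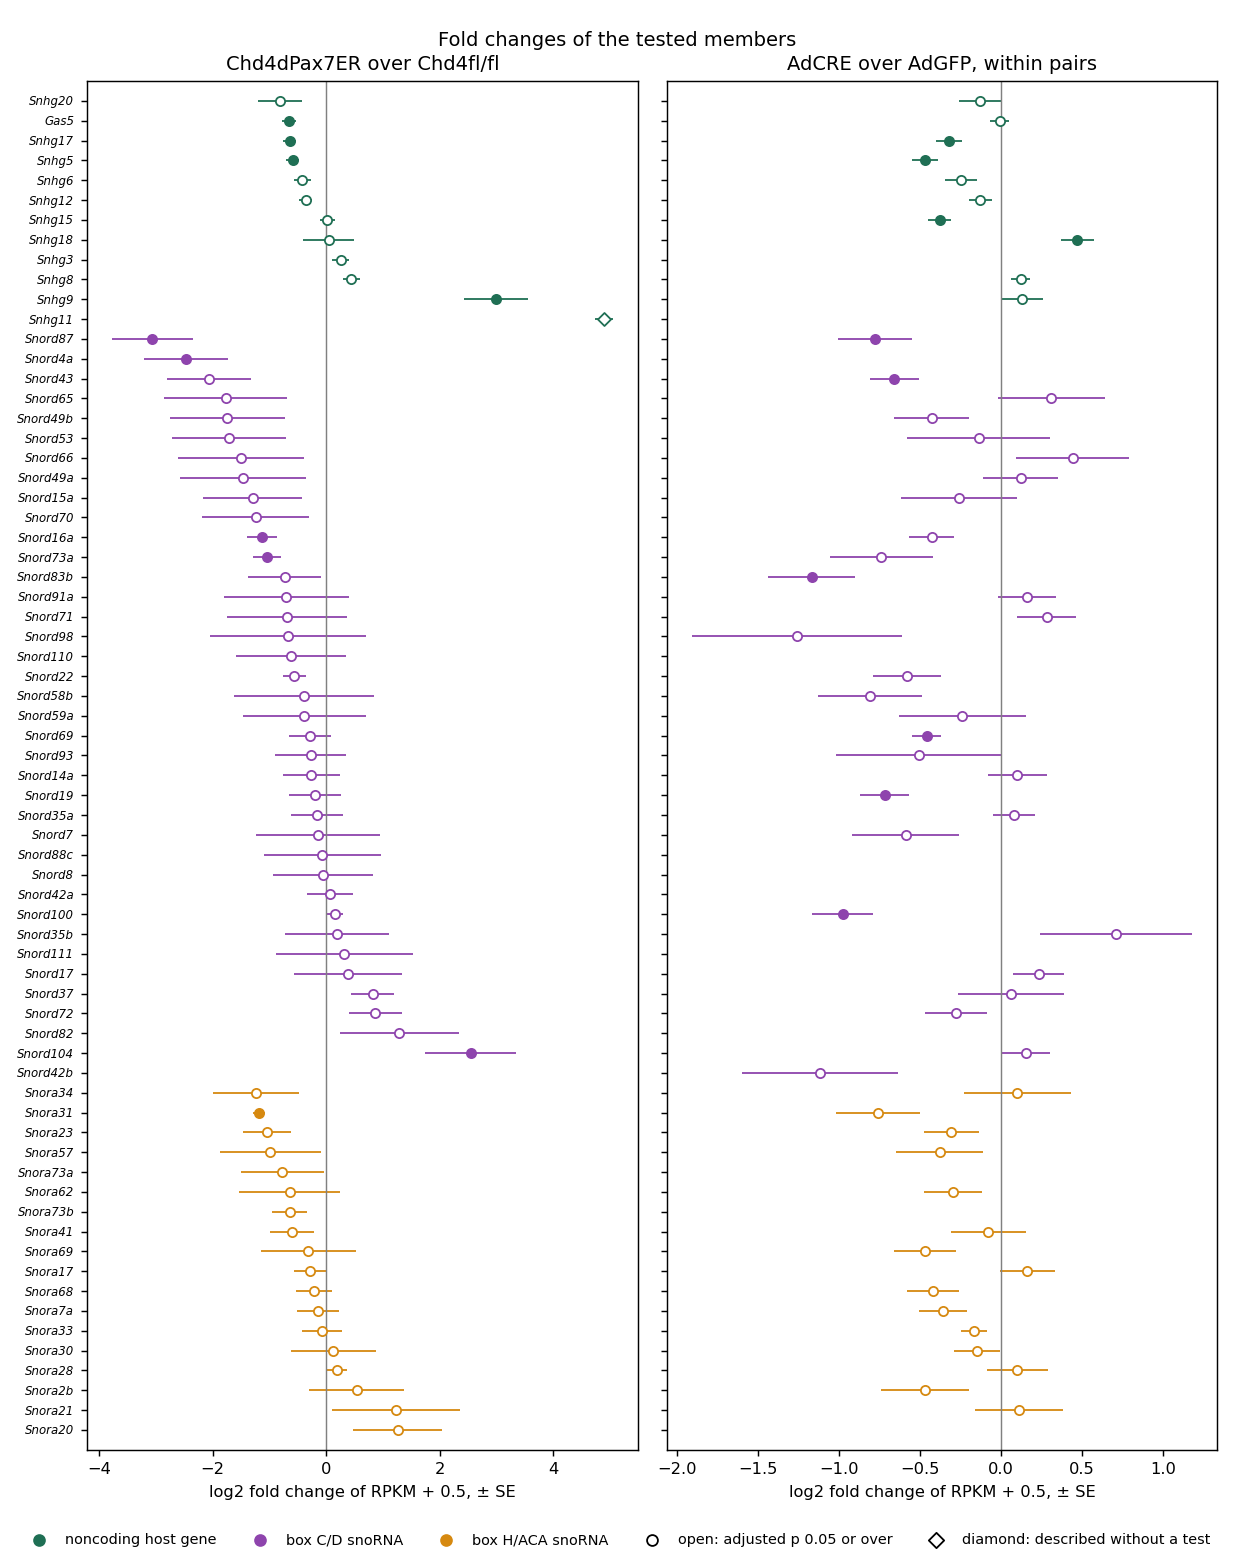
log2 fold change with SE of each tested member, Chd4dPax7ER over Chd4fl/fl (left) and AdCRE over AdGFP within pairs (right), with filled circles for an adjusted p under 0.05. Host genes, box C/D and box H/ACA snoRNAs are in separate blocks ordered by the in vivo value, and the 2 horizontal axes differ in range.

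Replicate 4 stood apart in culture. The box C/D members summed to 106, 59.2, 101 and 183 RPKM after AdCRE and 111, 105, 110 and 283 RPKM after AdGFP. Replicate 4 was the highest library for 32 of 45 snoRNAs after AdCRE and 34 of 45 after AdGFP. Read totals are not given. As estimated from the steps between low RPKM values, AdGFP replicate 4 also held the most reads, 1.64 times those of the shallowest library. Without pair 4 the block fit passed 6 snoRNAs as lower, of which 3 were among the 6 called with all pairs (Snord19, Snord69 and Snord100). The value after AdCRE was the lower of the pair for 25, 36, 27 and 32 of the 45 snoRNAs in pairs 1 to 4. It was lower in every pair for 8 snoRNAs and higher in every pair for none. The same counts were not taken over all genes, so they cannot show whether snoRNAs differed from other genes.

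Most genes of the particle proteins were lower within pairs in culture. All 4 box C/D core genes and 3 of 4 box H/ACA core genes passed in the block fit and none without it. In the block fit 36.2% of all genes passed, 18.7% as lower and 17.5% as higher. Fbl averaged 33.6 ± 3.56 RPKM after AdCRE and 40.6 ± 5.85 RPKM after AdGFP (-0.26, adjusted p = 0.00378 within pairs and 0.327 without). Dkc1 averaged 21.5 ± 3.42 RPKM after AdCRE and 29.2 ± 5.99 RPKM after AdGFP (-0.43, adjusted p = 0.000829 within pairs and 0.271 without). Nop56 (-0.37), Nop58 (-0.33), Gar1 (-0.33), Snu13 (-0.18) and Nop10 (-0.13) passed in the same fit, and Nhp2 (-0.09, adjusted p = 0.276) did not. Of 12 assembly factors 7 were lower (58.3%), and of 40 genes of ribosomal RNA synthesis and processing 23 were lower (57.5%) and none higher. All 16 cell cycle genes were lower within pairs too, summing to 250 to 544 RPKM after AdCRE and 502 to 909 RPKM after AdGFP, and their part in these differences was not tested. Of 10 nonsense-mediated decay genes 2 were lower, of 52 protein-coding hosts 11 were lower and 5 higher, of 7 other noncoding hosts only Rian passed (higher), and of 6 short structural RNAs 1 was higher. The shares that passed in these lists, 20.0%, 30.8%, 14.3% and 16.7%, were below that of all genes. Macrophage markers, 3 tested of 12 (2 higher within pairs), summed to 19.0 to 29.0 RPKM after AdCRE and 7.08 to 12.2 RPKM after AdGFP, with 3 of the 12 at 0. Myofibre genes, 8 of 10 higher within pairs, summed to 1232 to 4875 RPKM after AdCRE and 947 to 3960 RPKM after AdGFP. Fibroblast markers (3 higher and 1 lower of 4 tested) and pericyte markers (1 higher of 3) summed to 90.1 to 159 and 635 to 1048 RPKM after AdCRE, against 75.6 to 128 and 382 to 799 RPKM after AdGFP. Endothelial and Schwann cell markers summed to under 3 RPKM in every in vitro library.

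The difference between both settings was tested for 54 members in 1 fit over 16 libraries. Snhg9 passed, with an in vivo fold change 2.85 higher than in vitro (SE 0.68, adjusted p = 0.0291), among 4.12% of 11941 genes (2.43% higher in vivo, 1.69% lower). With the in vitro replicate number as a block 10.8% of genes (6.24% higher, 4.6% lower) and 3 members passed: Snhg9 (2.85, adjusted p = 0.0220), Gas5 (-0.63, adjusted p = 0.0245) with fold changes of -0.65 in vivo and -0.01 in vitro, and Snord100 (1.13, adjusted p = 0.0217) with 0.15 in vivo and -0.98 in vitro. The call of Snhg9 in the fit without the block was lost when AdCRE replicate 3, AdGFP replicate 2 or 4, Chd4dPax7ER replicate 4 or Chd4fl/fl replicate 3 or 4 was left out (adjusted p = 0.0503 to 0.0619). Snhg5, Snhg17, Snord43 and Snord87 had fold changes below 0 in each setting, and differences that did not pass.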

How the data were processed

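RPKM values were computed by the authors and deposited as 2 tables, in vitro and in vivo, with 46078 genes each. Per the submitters' processing notes, the series used HISAT2 2.1.0, DESeq2 3.6, cutadapt 1.18, HOMER, MACS2 2.1.2, FastQC 0.11.8 and Picard 2.18.15 with the mm10 (GRCm38) build. Not given in the sources used here are the read counter, its gene lengths, its use of strand, and which tool made the values. Total RNA came from RNeasy Micro columns per the labels' protocols. Such columns retain short RNAs poorly, so mature snoRNAs may be under-represented.

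From the RPKM values, log2(RPKM + 0.5) was tested with limma 3.58.1 in R 4.3.3, with moderated variances and a mean trend, within each table, for genes with at least 0.5 RPKM in at least 4 of 8 libraries. P-values are two-sided, and Benjamini-Hochberg adjustment ran over all genes tested. No count model was used. The fits were checked on simulated data. Positions and promoter sequences come from RefSeq (GRCm38.p6), and all 68 members matched it by symbol or synonym. A snoRNA was tied to a host where it lies within the host's span, without regard to strand. Where several genes spanned it, the shortest one in the tables was taken.

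Labels give replicate numbers 1 to 4 in each group. Deviations from the group means correlated within same-numbered pairs at 0.711 to 0.856 in vitro, so the numbers were taken to pair those libraries. The text names all host members, the snoRNAs past the threshold, the most abundant snoRNAs, their hosts (1 is not reported here) and the leading genes of each list. Chd8, Taf1d and Vwa8, Ipo7, Snx5, Ccar1 and 2410002F23Rik, and Snord42a, Snora23 and Snora78, are also named where a count or host turned on them. The members and gene lists were chosen with earlier results of these data known.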

Additional observations from a re-analysis of the deposited data

Results flagged for a closer look

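Among 106 groups of 4 libraries of the named members, 12 libraries stood apart from the other 3 by Dixon's test, where chance gives about 1 group in 20. Of these, 7 were replicate 4 in culture. AdCRE replicate 4 had 15.0 RPKM for Snora68, 29.1 RPKM for Snord104 and 4.81 RPKM for Snhg18, its highest, highest and lowest value of the group. AdGFP replicate 4 was the highest of its group for Snhg15 (20.3 RPKM), Snord100 (32.8 RPKM), Snord19 (18.7 RPKM) and Snord87 (13.6 RPKM). The lowest libraries of their groups were AdCRE replicate 3 for Snhg6 (9.02 RPKM), AdCRE replicate 2 for Snord73a (0.575 RPKM) and AdGFP replicate 2 for Snhg8 (17.3 RPKM). In vivo, Chd4dPax7ER replicate 1 was lowest for Snord73a (6.61 RPKM) and Chd4fl/fl replicate 3 was lowest for Snord100 (31.5 RPKM).

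The fold change of Snhg9 differed between the in vivo and the in vitro comparison, by 2.85 on the log2 scale in limma's interaction contrast (SE 0.68, adjusted p = 0.0291).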

How the results depend on the processing

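Leaving aside Snhg11, whose in vivo difference the choice of members fixed, 10 members passed in vivo, and 8 to 13 did when 1 library was left out (snoRNAs 4 to 7, host genes 4 to 6). Gas5, Snhg5, Snhg17, Snhg9, Snora31, Snord16a, Snord73a and Snord87 passed under all 16 alternatives, Snord4a under 9 and Snord104 under 6. In the in vivo table same-numbered libraries deviated together at -0.0967 to 0.0499, so the number does not pair them. There the replicate block gave 14 members, adding Snhg8, Snhg20, Snord22 and Snord43, while 21.6% of all genes passed. With Snhg11 counted, the block with TPM scaling gave 17 members and 8 host genes, and with quantile scaling 8 host genes. TPM scaling alone added Snhg6 (adjusted p = 0.0428), Snhg12 (0.0481) and Snord22 (0.0491).

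In vitro, no member passed without the replicate block when any 1 library was left out. With the block, 10 members, 6 snoRNAs and 4 host genes passed, and without 1 pair 9 to 18 members, 6 to 13 snoRNAs and 3 to 5 host genes (without pair 1: 18, 13 and 5; without pair 2: 9, 6 and 3; without pair 3: 11, 6 and 5; without pair 4: 9, 6 and 3). The block gave 12 members, 8 snoRNAs and 4 host genes with TPM scaling, and 11, 7 and 4 with quantile scaling. For the difference between settings, 0 members passed at a pseudocount of 0.1, 2 with no filter on low values (Snhg9, and Snhg11, whose in vivo side is no test), 3 with the replicate block, and 0 to 1 without 1 library. The cause was not tested. The fits that combine the block with a scaling or with a left-out pair, and those of the difference with the block or without 1 library, were chosen after seeing the data.

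Some small fold changes took the other sign. Under TPM scaling and quantile scaling Itga7 in vitro came to -0.01 in each and Snhg15 in vivo to -0.03 and -0.00, and Snhg18 in vivo came to -0.04 under quantile scaling. Without 1 library, fold changes in vitro ranged from -0.11 to 0.11 for Gas5, -0.07 to 0.33 for Snhg9, -0.31 to 0.06 for Snhg20, -0.15 to 0.53 for Snora17, -0.18 to 0.46 for Snora28, -0.10 to 0.33 for Snord104 and -0.71 to 0.02 for Snord16a. The same ranges were -0.11 to 0.75 for Acta1, -0.20 to 0.89 for Mb, -0.40 to 0.89 for Myh1, -0.09 to 0.10 for Itga7, -0.00 to 0.14 for Eif5, -0.04 to 0.04 for Rpl4, -0.07 to 0.01 for Rps12 and -0.01 to 0.06 for Rps3a1. In vivo they were -0.10 to 0.08 for Snhg15, -0.29 to 0.35 for Snhg18, -0.53 to 0.03 for Snora68, -0.80 to 0.21 for Snora69, -0.46 to 0.14 for Snord19 and -0.19 to 0.04 for Nhp2. Scaling moved the median of all genes to -0.06 at most. A median of 4 steps behind a snoRNA value limits what these libraries can show for most snoRNAs.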
